A study of Mus musculus with 2 samples.

Results

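The genes described are the Wnt signalling components that act outside the cell and at its surface, with 3 nuclear or feedback genes, in the calf muscle of newborn mice. They were chosen by name: every protein-coding gene whose symbol starts with Wnt or Fzd and a number, and a fixed list of coreceptors, secreted antagonists, R-spondins, their Lgr receptors, Axin2, Lef1 and Tcf7. This gave 51 of the 21901 genes that have a protein-coding transcript. They comprised 19 Wnt ligands, 10 Frizzled receptors, 5 coreceptors and other receptors (Lrp5, Lrp6, Ror1, Ror2 and Ryk), 5 secreted Frizzled-related proteins, 3 Dickkopf proteins, 4 R-spondins, 2 Lgr receptors and 3 nuclear or feedback genes. The rule uses names only, but it was set with earlier results of these data known.

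The series consists of 2 total RNA-seq libraries of gastrocnemius from B6CASTF1/J females at postnatal day 4, 1 library for each of the biological replicates 1 and 2. B6CASTF1/J mice are the first cross of C57BL/6J and CAST/EiJ, and no allele, treatment or other age is named in the labels. Each library started from 300 ng of whole-muscle RNA with ERCC spike-ins, and both samples point to the same donor record, so how the animals are related is not known. There was 1 group and no contrast, so nothing below is a test: 2 values against 2 cannot give an exact two-sided permutation p under 0.333, and spread between the libraries may be technical.

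Wnt proteins are secreted, lipid-modified signals that bind Frizzled receptors together with a coreceptor. With Lrp5 or Lrp6 as coreceptor they stabilise β-catenin, which enters the nucleus and works with factors of the TCF/LEF family; with Ror or Ryk receptors they act on cell polarity and movement without β-catenin. Secreted Frizzled-related proteins bind the ligands, Dickkopf proteins block the Lrp coreceptors, and R-spondins strengthen the signal through Lgr receptors by protecting Frizzled proteins from removal. In muscle the pathway is known for roles in the formation of myogenic cells, in satellite cells and at the nerve-muscle synapse.

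Levels are given in TPM (transcript abundance per length, scaled to the same total in each library), as values of replicates 1 and 2 or as mean ± SD over both libraries (n = 2). Reads are given in expected counts, the authors' estimates of the reads of each gene, which totalled 30745756 in replicate 1 and 35977559 in replicate 2. The 5 muscle fibre markers had a median of 4448 TPM, so the labelled tissue was present. The libraries also differed in other tissues: all 7 tendon markers were lower in replicate 2, with a summed level of 325.7 and 184.8 TPM, as were all 6 bone markers (32.5 and 1.84 TPM), with Ibsp and Mmp13 at 0 in replicate 2. The size of the difference varied within both lists. The tendon marker Scx had 16.6 and 14.1 TPM, and the bone marker Dmp1 had 0.98 and 0.77 TPM. All 4 liver markers were higher in replicate 2 (9.74 and 98.6 TPM), and all 4 red cell markers were lower (40.2 and 5.46 TPM). For the cell types of whole muscle, fewer cells of a type and less RNA per cell cannot be told apart. The source of the liver, bone and red cell transcripts was not tested.

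Receptors and antagonists were broadly expressed, while most ligands were near or below the detection limit. A gene counted as detected if neither library was below 1 TPM. By this measure 32 of the 51 genes were detected, or 62.7%, beside 55% of all genes with a protein-coding transcript. All 10 Frizzled genes, all 5 coreceptors and other receptors, all 5 secreted Frizzled-related genes and both Lgr genes were detected. Of the ligands 6 of 19 passed, of the Dickkopf genes 2 of 3, of the R-spondins 1 of 4, and of the 3 nuclear or feedback genes Axin2 only. The median of the 32 detected genes was 7.28 TPM, and that of all detected genes with a protein-coding transcript was 9.92 TPM.

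**Figure D1:**
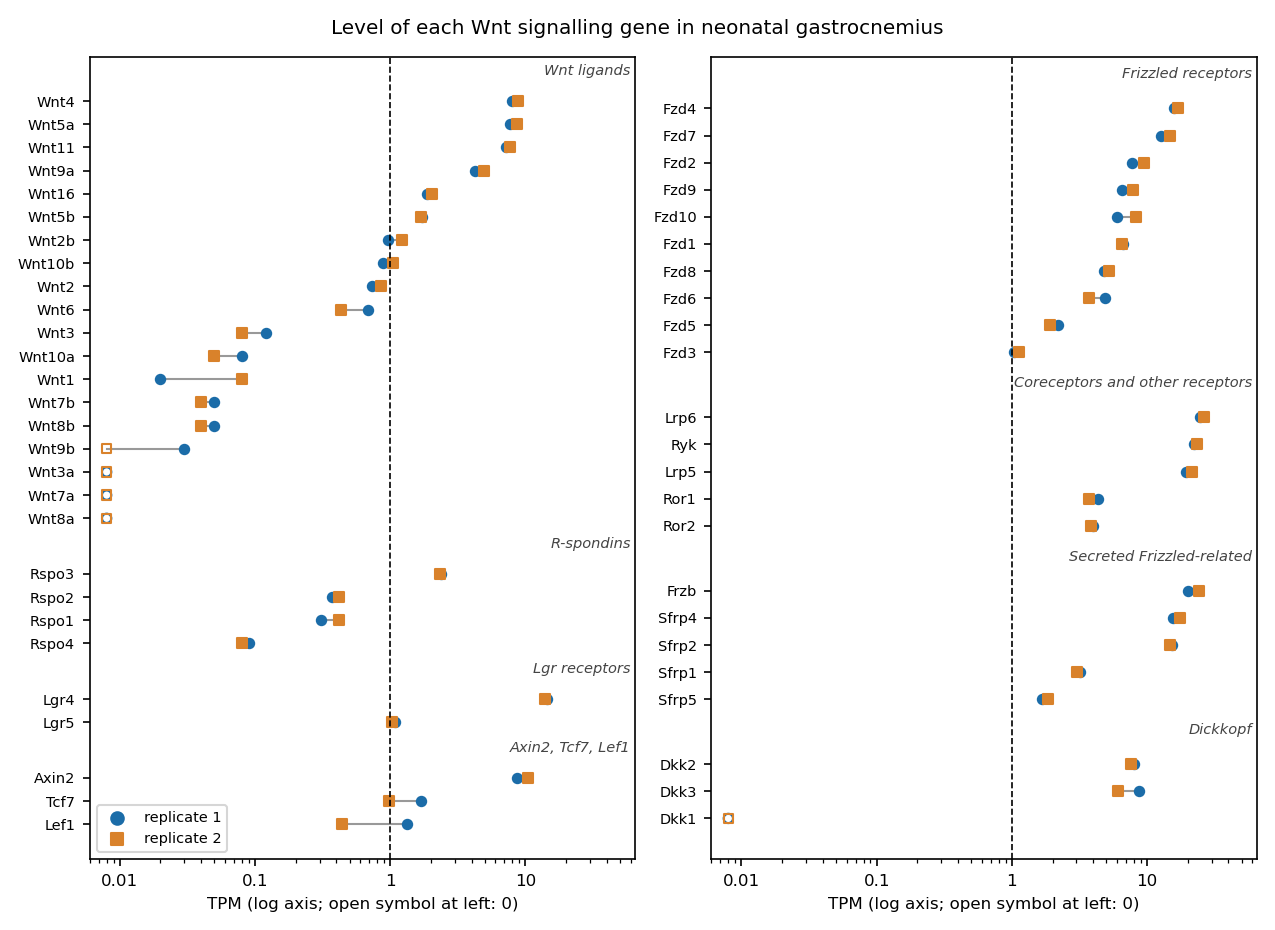
TPM (log axis) of all 51 genes, grouped by role, with a circle for replicate 1, a square for replicate 2, a dashed line at the detection limit of 1 TPM and open symbols at the left edge for a value of 0. The receptors in the right panel all lie above the line, whereas 13 of the 19 ligands in the left panel have at least 1 library below it.

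Summed over each class, the coreceptors and other receptors reached 76.7 ± 2.98 TPM and the Frizzled receptors 72.2 ± 5.35 TPM, with overlapping ranges (74.5 to 78.8 and 68.4 to 75.9 TPM). The secreted Frizzled-related genes followed with 58.8 ± 3.82 TPM, below both in either library. All 19 ligands together reached 36 ± 2.28 TPM. The Lgr receptors summed to 15.3 ± 0.424 TPM and the Dickkopf genes to 15.2 ± 2.14 TPM, which overlapped, and the R-spondins to 3.21 ± 0.0778 TPM. The summed level of the Frizzled receptors thus exceeded that of the ligands they bind in both libraries.

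Among the ligands, Wnt4, Wnt5a and Wnt11 stood at similar levels and made up most of the class. Wnt4, known as a ligand in kidney and reproductive tract development, had 8.01 and 8.81 TPM (8.41 ± 0.566). Wnt5a, the classic ligand of Ror receptors, had 7.70 and 8.61 TPM (8.15 ± 0.643). Wnt11, a ligand of the β-catenin-independent branch, had 7.24 and 7.68 TPM (7.46 ± 0.311). The ranges of Wnt4 and Wnt5a overlapped, and that of Wnt11 lay just below both. Their shares of the ligand TPM were 23.4% ± 0.094, 22.6% ± 0.355 and 20.7% ± 0.447.

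Which of these ligands led depended on how reads were assigned. Counting reads without scaling for length put Wnt5a first, with 1038 and 1185 expected counts beside 918 and 1146 for Wnt4. The estimated mean length of Wnt5a was 4914 nt in replicate 1 and 4433 nt in replicate 2, beside 4194 nt for Wnt4. In the other deposited quantification, a second set of transcript estimates by the authors, Wnt11 had the highest mean, 14.9 TPM beside 14.5 TPM for Wnt5a and 13.7 TPM for Wnt4, but Wnt5a was first in replicate 1 (14.4 TPM beside 14.1 for Wnt11) and Wnt11 in replicate 2 (15.8 beside 14.7). Wnt4 has a single annotated transcript, on chromosome 4 from 137277489 to 137299726 (mm10), so its estimate is not divided among isoforms.

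Below these 3 stood Wnt9a, with 4.25 and 4.94 TPM and 12.7% ± 0.549 of the ligand total. Wnt16 reached 1.86 and 2.03 TPM, and Wnt5b, the paralog of Wnt5a, 1.71 and 1.69 TPM. Each of these 6 detected ligands kept its place within 1 percentage point of the class total between the libraries, as the plot of class shares shows. Wnt2b (0.96 and 1.22 TPM) and Wnt10b (0.89 and 1.05 TPM) crossed the limit in replicate 2 only. Wnt2 (0.73 and 0.86 TPM) and Wnt6 (0.69 and 0.43 TPM) were below it in both. These 4 genes had between 27 and 121 expected counts per library, so their reads were few but not at the limit of counting.

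**Figure D2:**
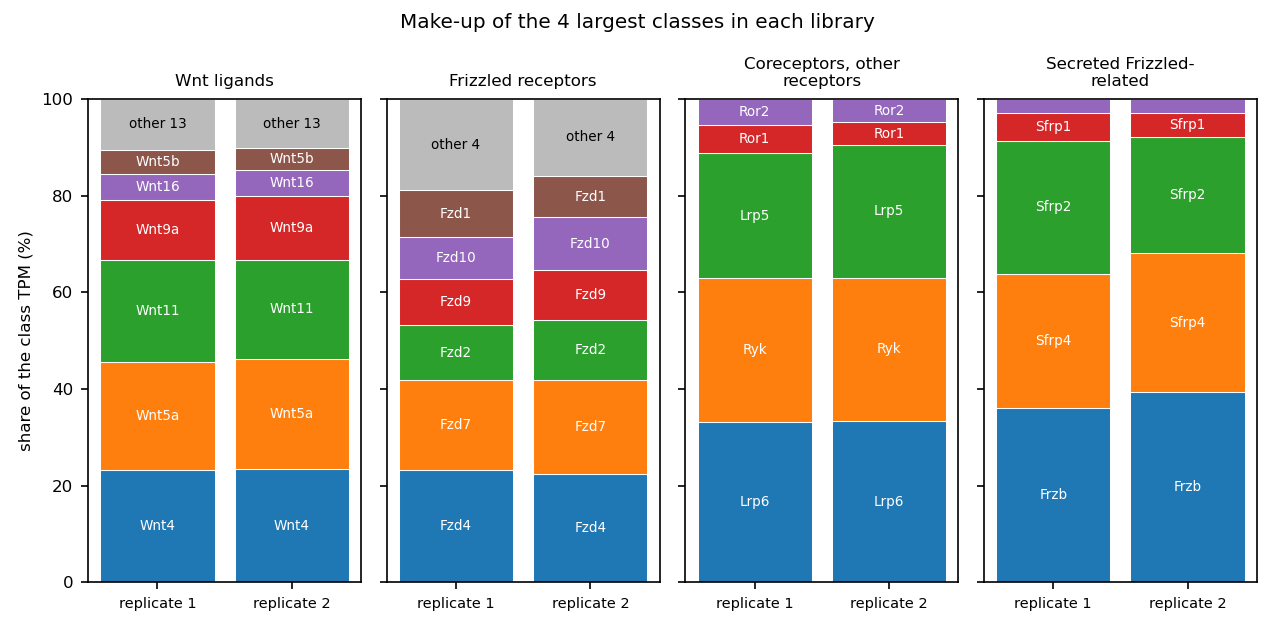
Share of the class TPM (%) taken by each gene in replicates 1 and 2 for the 4 classes with the highest summed TPM, with grey for the 13 ligands and 4 Frizzled genes of lowest share. Wnt4, Wnt5a and Wnt11 take near-equal parts of the ligands, and Lrp6, Ryk and Lrp5 most of the coreceptor class. The leading genes of each class keep their order in both libraries. Lower down, Fzd1, Fzd9 and Fzd10 reverse their order, and Ror1 and Ror2 change places.

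The remaining 9 ligands were close to or at 0. Wnt3 had 10 and 8 expected counts, Wnt10a 5 and 4, Wnt7b 4 and 4, Wnt1 1 and 6, Wnt8b 2 and 1, and Wnt9b 4 and 0. Wnt3a, Wnt7a and Wnt8a had no count in either library. A count of 0 allows up to 3 counts, which for Wnt7a, a ligand known from adult satellite cell expansion, was 0.0928 TPM in replicate 1 and 0.0818 TPM in replicate 2. These values use a gene length of 1254 nt. The coding transcript of Wnt7a has 3172 nt and its other transcripts 297 and 293 nt, so a limit per transcript would differ. These limits cover counting error only, and the genes were not detectable at this depth.

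Several Wnt genes lie in neighbouring pairs, and in 3 of 4 pairs 1 gene took several times the counts of the other in both libraries. Within 100 kb of each other and with no protein-coding gene between them lie Wnt6 and Wnt10a on chromosome 1 (6.2 kb apart), Wnt3a and Wnt9a on chromosome 11 (16.2 kb), Wnt9b and Wnt3 on chromosome 11 (24.3 kb) and Wnt10b and Wnt1 on chromosome 15 (11.7 kb). In the last 3 pairs the genes point away from each other. Wnt9a (59306928 to 59333552) took 383 and 505 expected counts, whereas Wnt3a (59248033 to 59290752) took none. Against the floor of 3 counts per library for Wnt3a, Wnt9a was at least 106-fold higher in replicate 1 and at least 139-fold higher in replicate 2. Wnt10b took 61 and 78 expected counts and its neighbour Wnt1 took 1 and 6, and Wnt6 took 32 and 27 beside 5 and 4 for Wnt10a. Wnt9b (4 and 0) and Wnt3 (10 and 8) were both near the floor.

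The 250 bases upstream of the RefSeq start sites of 2 of these pairs are shown because the genes of a pair differ in level while all 4 promoters hold more CpG dinucleotides, printed in capitals, than the median promoter (build GRCm38.p6, 5′ to 3′ on the strand of the gene).
Wnt9a (chr11:59306680-59306929, plus strand): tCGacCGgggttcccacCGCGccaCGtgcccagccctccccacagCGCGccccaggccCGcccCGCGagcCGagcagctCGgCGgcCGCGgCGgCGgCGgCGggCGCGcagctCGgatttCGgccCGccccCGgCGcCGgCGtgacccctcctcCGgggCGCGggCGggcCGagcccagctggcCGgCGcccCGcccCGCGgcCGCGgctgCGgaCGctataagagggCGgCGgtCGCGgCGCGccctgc
Wnt3a (chr11:59290752-59291001, minus strand): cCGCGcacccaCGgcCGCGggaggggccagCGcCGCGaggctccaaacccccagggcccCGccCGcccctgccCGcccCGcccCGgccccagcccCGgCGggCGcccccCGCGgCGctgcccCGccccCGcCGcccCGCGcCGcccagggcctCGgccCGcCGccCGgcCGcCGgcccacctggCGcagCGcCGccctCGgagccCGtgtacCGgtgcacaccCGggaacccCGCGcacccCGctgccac
Wnt10b (chr15:98778151-98778400, minus strand): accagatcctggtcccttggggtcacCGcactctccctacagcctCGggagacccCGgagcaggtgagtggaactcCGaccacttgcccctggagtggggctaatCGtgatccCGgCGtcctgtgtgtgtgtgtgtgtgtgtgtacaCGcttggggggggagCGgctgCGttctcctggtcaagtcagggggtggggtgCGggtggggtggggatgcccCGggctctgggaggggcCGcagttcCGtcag
Wnt1 (chr15:98789607-98789856, plus strand): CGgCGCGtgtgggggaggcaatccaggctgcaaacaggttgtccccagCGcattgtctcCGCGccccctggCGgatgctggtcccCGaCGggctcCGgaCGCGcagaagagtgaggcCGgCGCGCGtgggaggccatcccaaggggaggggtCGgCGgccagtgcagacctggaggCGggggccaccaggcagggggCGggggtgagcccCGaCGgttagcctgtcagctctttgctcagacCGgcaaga

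The Wnt9a window holds 48 CpG and that of its undetected neighbour Wnt3a 41, more than 99.8% and 98.9% of the 32841 promoter windows in the RefSeq table, whose median is 6. The Wnt10b window holds 14 CpG and the Wnt1 window 23, more than 70.6% and 86.7% of all windows. In the pair Wnt10b and Wnt1 the gene with the higher level thus had fewer CpG, and in the pair Wnt9a and Wnt3a it had more. These pairs were shown because their genes differ in level, and whether CpG number has a part in the levels was not tested. DNA methylation was not measured.

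Fzd4 and Fzd7 led the Frizzled receptors, the serpentine receptors that bind Wnt proteins through a cysteine-rich domain. Fzd4, which is also the receptor of norrin in blood vessels (chromosome 7, 89404355 to 89413134), had 15.9 and 17.0 TPM, 22.8% ± 0.624 of the class. Fzd7, a receptor reported for Wnt7a on satellite cells (chromosome 1, 59482424 to 59486955), had 12.7 and 14.8 TPM, 19.0% ± 0.648 of the class. The ranges of these leading receptors did not overlap, and Fzd7 in turn lay above Fzd2 (7.74 and 9.41 TPM).

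From Fzd2 down, the Frizzled genes formed a gradual series. Fzd9 had 6.51 and 7.81 TPM, Fzd10 5.95 and 8.30 TPM and Fzd1 6.61 and 6.55 TPM, and the ranges of these 3 overlapped. Fzd8 (4.79 and 5.26 TPM) lay below them and overlapped Fzd6 (4.92 and 3.73 TPM). Fzd5 (2.19 and 1.93 TPM) and Fzd3 (1.04 and 1.13 TPM) were lowest. Fzd3 shows what scaling for length does: it had 368 and 455 expected counts, no fewer than the 367 and 368 of Fzd6, but its coding transcript has 12734 nt, the longest among the leading transcripts of the class. In 7 of the Frizzled genes 1 exon carries the whole coding sequence.

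Lrp6, Ryk and Lrp5 were among the 4 highest genes of all 51. Lrp6, the coreceptor of the β-catenin branch (chromosome 6, 134446476 to 134566965), had 24.7 and 26.3 TPM and 33.2% ± 0.204 of its class. This was the highest level in both libraries of the gene tables, whereas in the other quantification Frzb was first in both (40.9 and 46.4 TPM, beside 40.2 and 43.4 for Lrp6). Ryk, an atypical kinase-like Wnt receptor (chromosome 9, 102834917 to 102908305), had 22.3 and 23.4 TPM. Lrp5, the close relative of Lrp6 (chromosome 19, 3584828 to 3686564), had 19.2 and 21.6 TPM. The Lrp6 range lay above that of Ryk, and the Lrp5 range lay below both. The receptor tyrosine kinases Ror1 (4.36 and 3.69 TPM) and Ror2 (4.01 and 3.83 TPM) overlapped each other and stood far below.

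The leading secreted Frizzled-related genes, which encode soluble proteins with a Frizzled-like ligand-binding domain, reached the level of the main receptors. Frzb, also called Sfrp3 (chromosome 2, 80411970 to 80447625), had 20.2 and 24.2 TPM, 37.7% ± 2.29 of the class. Sfrp4 had 15.6 and 17.7 TPM, and Sfrp2 15.4 and 14.7 TPM; their ranges did not overlap each other or that of Frzb. Sfrp1 (3.21 and 3.02 TPM) and Sfrp5 (1.67 and 1.85 TPM) were much lower. Each of these antagonists was detected in both libraries.

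The Dickkopf genes were divided between 2 expressed members and 1 at 0. Dkk2, a ligand of the Lrp coreceptors, had 8.00 and 7.61 TPM. Dkk3, a divergent member that is not known to bind those coreceptors in the same way, had 8.72 and 6.08 TPM. Dkk3 was thus the higher of the pair in replicate 1 and Dkk2 in replicate 2, and Dkk2 took 51.7% ± 5.47 of the class. Dkk1, the best-known inhibitor of the family and itself a target of β-catenin, had no count in either library, which allows up to 0.0460 and 0.0406 TPM; the other quantification listed it above these bounds, at 0.158 and 0.0676 TPM, where it was still under the detection limit of 1 TPM.

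Among the R-spondins, Rspo3 had 2.38 and 2.34 TPM and 73.7% ± 2.67 of the class. Rspo2, known for a role in clustering acetylcholine receptors at the nerve-muscle synapse, had 0.37 and 0.42 TPM, Rspo1 0.31 and 0.42 TPM and Rspo4 0.09 and 0.08 TPM. Of their receptors Lgr4 had 14.5 and 13.99 TPM, 93.1% ± 0.0853 of the pair, while Lgr5, a stem cell marker of the gut, had 1.09 and 1.03 TPM. Lgr5 had the lowest mean of the 32 detected genes, and its range overlapped that of Fzd3.

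Axin2, a negative regulator that β-catenin induces and a common readout of the pathway (chromosome 11, 108920349 to 108950783), had 8.69 and 10.4 TPM. The other genes of this class, the nuclear factors Tcf7 and Lef1, could not be ranked as firmly. Tcf7, which encodes the factor TCF1, had 1.68 and 0.98 TPM, and Lef1 had 1.34 and 0.44 TPM, so both passed the limit in replicate 1 only. Their relatives Tcf7l2 (19.8 ± 0.0424 TPM) and Tcf7l1 (13.2 ± 0.276 TPM), from the list of other pathway genes, were higher in both libraries. With these 2 included, Tcf7l2 was the most abundant of the 4 TCF/LEF factors of the mouse in both libraries.

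Binding sites of these factors are described by the heptamer CTTTGNN, where each N stands for A or T, which was searched on both strands of the 250 upstream bases. RefSeq windows were matched for 35 of the 51 genes. Under 80% of the genes had a window, so no statement over the set is made. The heptamer occurred in 14.8% of all 32841 windows, and in 3 of the 35: Dkk1 with 2 matches, Fzd7 with 1 and Wnt11 with 1. The stretches with these matches are shown because they belong to 1 gene at 0 and 2 detected genes, with the heptamer or its reverse complement in capitals.
Dkk1 (chr19:30549588-30549613, minus strand): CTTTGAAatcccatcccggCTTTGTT
Fzd7 (chr1:59482007-59482033, plus strand): ccacagagaaAACAAAGcgcgctattg
Wnt11 (chr7:98835051-98835077, plus strand): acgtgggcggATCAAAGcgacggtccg

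Dkk1, with 2 matches 117 and 98 bases before its RefSeq start, was at 0, while Fzd7 and Wnt11, with 1 match each, were detected. Axin2 had no match in its window, which says only that these letters are not in those 250 bases. A match is a description of the letters and not a binding site. The RefSeq start of Dkk1 lies 169 bases downstream of the GENCODE start. Its 2 matches therefore lie inside the GENCODE transcript (30545863 to 30549665) and are upstream of the RefSeq start only. The RefSeq start of Fzd7 lies 277 bases upstream of the GENCODE start, so its match is farther from the latter. The windows follow the RefSeq starts only.

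The estimates depend on how reads were divided among the transcripts of a gene. None of the 51 genes shared counts with another gene by the authors' posterior SD, which was 0 for each of them in both libraries, beside 82.3% of the better-covered protein-coding genes (100 counts or more). Of the 32 detected genes, 13 have 1 annotated transcript and 29 had the same leading transcript in both libraries, the exceptions being Lgr5, Ryk and Wnt11. In the other quantification 28 had the same leading transcript as here, the exceptions being Fzd6, Lgr5, Ryk and Wnt11. In 7 genes transcripts without a protein-coding annotation took more than 10% of the TPM in both libraries: Frzb, Fzd6, Lgr4, Lgr5, Lrp6, Wnt11 and Wnt5a.

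Wnt11 had the largest such part among genes with at least 100 counts. Transcripts not annotated as protein-coding, mostly Wnt11-202 and Wnt11-204 of the nonsense-mediated decay class, took 69.3% and 55.9% of its TPM. Its coding transcripts alone gave 2.22 and 3.39 TPM, beside 5.21 and 5.61 TPM for Wnt5a and the unchanged 8.01 and 8.81 TPM of Wnt4. In the other quantification this part was 44.4% and 50.9%, and the leading transcript was the coding Wnt11-205. Counting coding transcripts only in the gene tables, Wnt4 thus held 29.7% of the ligand TPM and stood above both others in each library.

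The first place of Frzb by TPM did not hold without a short transcript. Frzb-202, a processed transcript of 830 nt with no coding sequence, took 29.2% and 38.7% of the Frzb TPM but only 9.004% and 13.1% of its expected counts. With coding transcripts only, Frzb fell to 14.6 ± 0.361 TPM and Sfrp4, at 16.6 ± 1.51 TPM, was first, although by expected counts of all transcripts Frzb kept 40.7% of the class. Lgr5 had 55.1% and 67.0% of its TPM in such transcripts, and its coding transcripts, at 0.49 and 0.34 TPM, were under the detection limit.

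**Figure D3:**
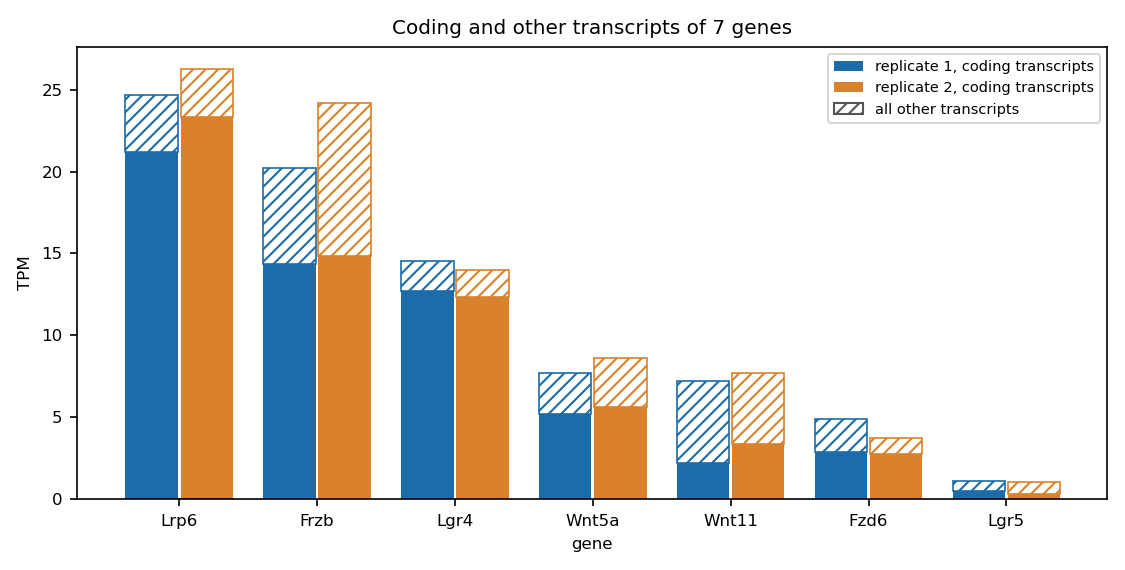
TPM of the 7 detected genes with over 10% of TPM in transcripts not annotated as protein-coding in both libraries, with solid bars for coding transcripts and hatched bars for all others, replicate 1 in blue and replicate 2 in orange. The hatched part exceeds the solid part in the Wnt11 and Lgr5 bars and adds 5.91 and 9.35 TPM to Frzb.

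Lef1 shows the same effect between the libraries. Its expected counts were 74 and 46, a ratio of 0.561 after scaling, but its TPM ratio was 0.328. In replicate 1 the retained-intron transcript Lef1-208, of 345 nt, took 3.65 expected counts, which made up 39.6% of the gene's TPM, and in replicate 2 it took none. The estimated mean length of Lef1 therefore changed from 2069 to 3378 nt. The coding transcripts had 0.61 and 0.41 TPM, and Lef1-208 alone gave 0.53 TPM in replicate 1.

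Differences between the libraries are given as log2 ratios of replicate 2 over replicate 1, after scaling by trimmed mean of M values (TMM), for the 30 genes that averaged 100 expected counts or more. None of the 30 was over 2-fold apart, beside 0.718% of all 12256 genes at that depth, and none of 40 at a minimum of 10 counts, beside 3.75%; with so few genes, counts of 0 are near the background. The median absolute log2 ratio was 0.141 for the 30 genes and 0.115 over all genes. At 100 counts 19 ratios were above 0 and 11 below, with a median of 0.11 beside 0.02 over all genes, of which 55.3% were above 0.

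A counting interval (exact Clopper-Pearson, 95%) covers sampling of reads only, not the spread between animals. For 13 of the 30 genes it lay above 0, beside 23.1% of all genes, and for 3 below 0, beside 15.5%. Spike-in scaling shifts every ratio by -0.14 and puts 11 of the 30 above 0, with 2 intervals above 0 and 10 below; over all genes 22.9% were then above 0, with 5.91% of intervals above 0 and 42.6% below. The balance of directions thus depends on the scaling, for these genes and for all genes. Fzd10 had the highest ratio, 0.48 (interval 0.33 to 0.65), with 525 and 831 expected counts. Fzd10 and Fzd2 (0.29, interval 0.15 to 0.42) were the 2 genes whose intervals stayed above 0 with spike-in scaling.

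Dkk3 had the lowest ratio of the 30, -0.51 (interval -0.67 to -0.36), with 796 and 630 expected counts. Fzd5 (-0.31, interval -0.53 to -0.10) and Ror1 (-0.23, interval -0.39 to -0.08) followed, and the intervals of all 3 lay below 0 under each of the 4 scalings tried. Among genes with 10 to 100 counts, Lef1 (-0.83), Tcf7 (-0.75) and Lgr5 (-0.54) also had intervals below 0, from 46 to 104 expected counts per library, beside 15.5% of all genes with at least 10 counts.

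**Figure D4:**
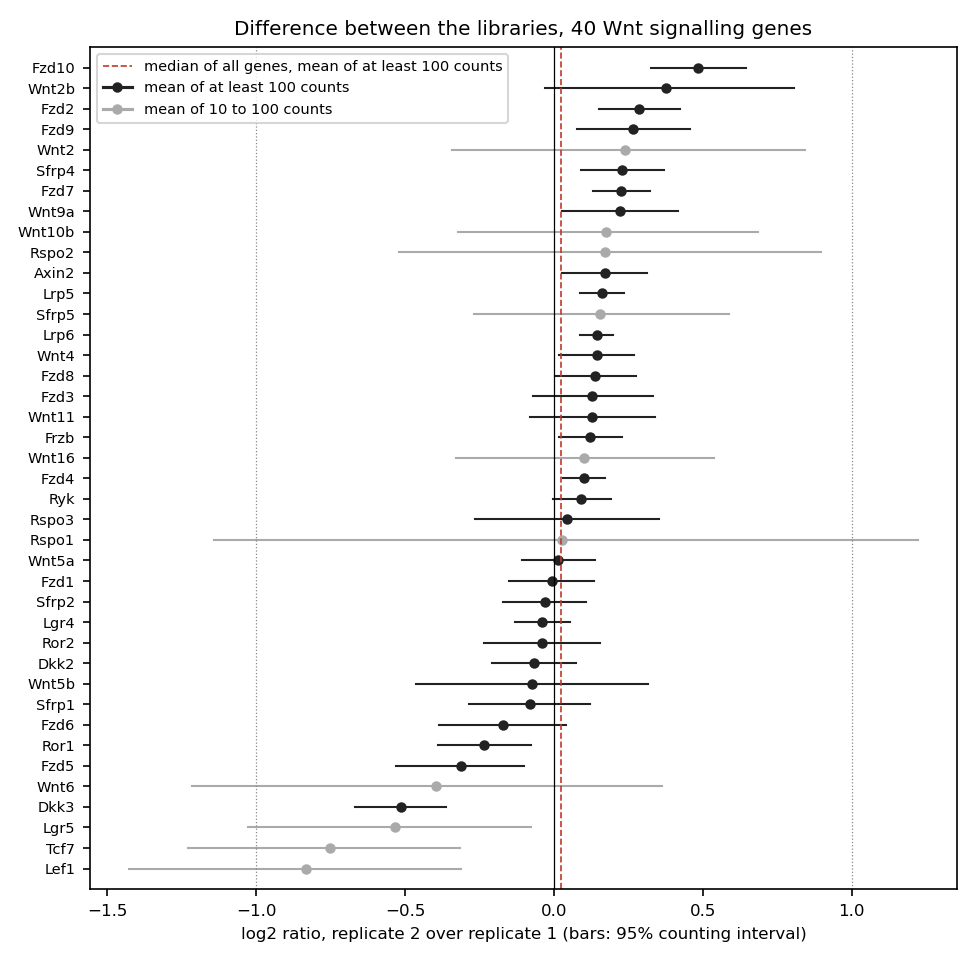
Log2 ratio of replicate 2 over replicate 1 for the 40 genes averaging 10 expected counts or more, with 95% counting intervals as bars, dotted lines at 2-fold and a dashed red line at the median of all genes averaging 100 counts or more (0.02). All points lie between the dotted lines, from -0.83 for Lef1 to 0.48 for Fzd10.

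Beside these genes, the 7 tendon markers had a median log2 ratio of -1.04 and the 6 bone markers of -3.91, as their summed levels above show. Lymphocyte markers, listed because Tcf7 and Lef1 are abundant in T cells, summed to 5.49 TPM in replicate 1 and 2.86 in replicate 2. Of these, 1 of 7, Ptprc, was detected, and it made up most of the sum (3.35 and 1.91 TPM), though other blood cells express it too. Cd3e, which defines T cells, had 7 and 4 expected counts. Of the 4 lymphocyte markers averaging 10 counts or more, Cd4 was higher in replicate 2 (22 and 38 counts). The other 3 were lower there: Ptprc, Cd79a (46 and 5 counts) and Ms4a1 (16 and 8 counts). Muscle fibre markers were higher in replicate 2 (5 of 5, median 0.26), and so were Schwann cell markers (4 of 4, median 0.49), with summed levels of 184.2 and 266.3 TPM. Adipocyte markers were lower (3 of 3, median -0.34; 347.9 and 273.2 TPM), as were 3 of the 4 cartilage markers with at least 10 counts (median -0.87; 23.3 and 11.5 TPM). Of the 4 keratinocyte markers 3 were higher in replicate 2 (median 1.31) and Trp63 was lower, with 6.99 and 8.43 TPM in sum. Only 1 of these 4 averaged 100 counts or more. Medians were smaller for fibroblast (0.08), endothelium (0.12), mural (0.05), macrophage (-0.11) and satellite cell (0.15) markers. The part of any of these cell types in the ratios of Fzd10, Fzd2, Dkk3, Ror1, Fzd5, Tcf7, Lef1 or Lgr5 was not tested.

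Most other listed genes of the pathway were detected. Of a list of 61 such genes 49 were detected, beside 55% of all genes with a protein-coding transcript. None of the 49 that averaged 100 counts or more was over 2-fold apart between the libraries, beside 0.718% of all genes. With so few genes, that count is near the background. The list median was 9.46 TPM, beside 2.36 TPM for the 51 genes and 2.165 TPM for all genes with a protein-coding transcript. In the cytoplasm Ctnnb1, which encodes β-catenin, had 167 ± 0.552 TPM, the kinase gene Csnk1a1 119 ± 2.07 TPM and the tankyrase gene Tnks2 65.5 ± 6.56 TPM, and 13 of 14 genes of this group were detected. All 11 nuclear genes were detected, led by the β-catenin partner Bcl9l (48.3 ± 3.32 TPM), the inhibitor Ctnnbip1 (36.8 ± 2.80 TPM) and Tcf7l2.

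At the membrane, the glypicans Gpc3 (122 ± 6.68 TPM) and Gpc4 (82.0 ± 3.60 TPM) led, followed by the coreceptor Ptk7 (18.3 ± 1.40 TPM), with 8 of 10 detected. Wls, which carries Wnt proteins to the cell surface, had 27.3 ± 1.22 TPM, and Porcn, which attaches their lipid, 1.88 ± 0.339 TPM; Trabd2b, a protease that cleaves Wnt proteins, had 1.38 ± 0.269 TPM. Of the 9 other extracellular inhibitors 4 were detected, led by the Dickkopf receptor Kremen1 (39.2 ± 2.69 TPM), Wif1 (6.17 ± 2.56 TPM) and Apcdd1 (3.66 ± 0.438 TPM). Wif1, which binds Wnt proteins, had 7.98 TPM in replicate 1 and 4.36 in replicate 2.

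Of 5 feedback genes and targets 4 were detected, with Ccnd1 (30.6 ± 1.84 TPM), Dact1 (13.8 ± 0.332 TPM) and Nkd1 (4.54 ± 0.0424 TPM) the highest. Of 8 planar polarity genes 6 were detected, led by Daam1 (10.9 ± 0.276 TPM), Prickle1 (9.46 ± 0.0141 TPM) and Vangl1 (8.42 ± 1.24 TPM). The 12 genes of the list that were not detected were Apc2, Celsr1, Celsr3, Dkk4, Dkkl1, Draxin, Kremen2, Lgr6, Notum, Rnf43, Sost and Sp5. Rnf43 (0.08 and 0.11 TPM) and its paralog Znrf3 (9.44 ± 0.990 TPM), the ligases that remove Frizzled receptors and are restrained by R-spondins with Lgr proteins, thus stood far apart in level.

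**Figure D5:**
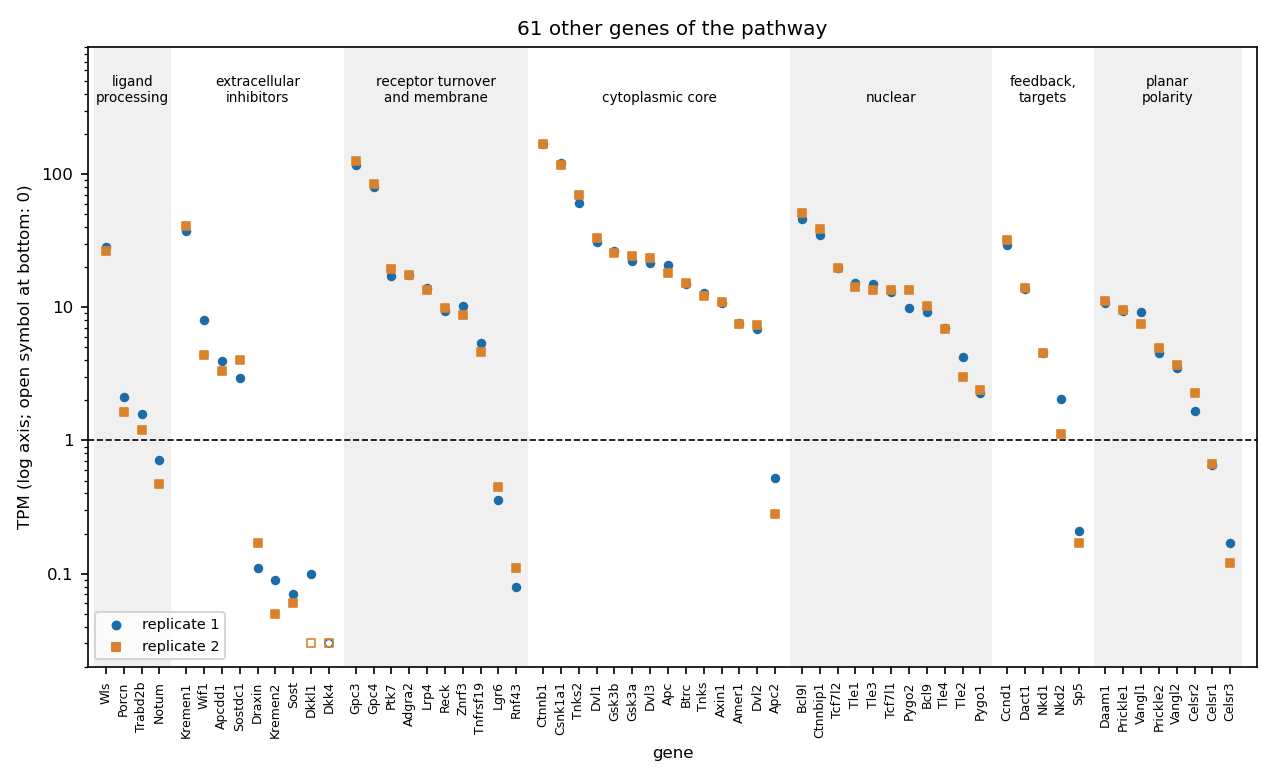
TPM (log axis) of 61 other pathway genes by group, a circle for replicate 1, a square for replicate 2, a dashed line at 1 TPM and open symbols at the bottom for 0. Ctnnb1 and Gpc3 head their groups above 100 TPM, and 5 of the 9 extracellular inhibitors lie below the line.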

How the data were processed

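RNA was extracted with a tissue RNA purification kit, per the labels' protocols. For each library the authors deposited gene and transcript tables with expected counts (estimated reads, not always whole) and TPM, made from transcriptome alignments, and a separate transcript table with estimated counts and TPM made from the reads directly, called the other quantification. Per the file headers and deposited notes the build was mm10 with GENCODE M21. The gene tables, as deposited by the authors, also give a posterior SD of each count in reads and lengths in nt; the effective length is the length minus 99 nt. The sources used here do not give the aligner, the quantification programs or the treatment of strand. Therefore 9 of the 51 genes that share exon bases with a gene on the other strand are less certain; those opposite genes had 10 expected counts or fewer. CAST/EiJ reads were counted on the C57BL/6J reference, and alleles were not separated.

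Expected counts were rounded. edgeR 4.0.16 (R 4.3.3) gave TMM scaling over genes averaging 10 counts or more and log2 ratios with a prior count of 2, tested on simulated data; DESeq2 1.42.0 size factors, library size and spike-ins were alternatives. Calls over 2-fold used a mean of at least 100 counts. Intervals are exact Clopper-Pearson (95%), the floor for a count of 0 is 3 counts, and neither includes more than counting error, because without molecular identifiers PCR copies of 1 molecule count as separate reads. ERCC spike-ins took 215303 and 268427 expected counts. The rest used Python 3.11.15, pandas 2.3.3, numpy 2.4.6, matplotlib 3.10.9 and scipy 1.17.1.

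The 51 genes, the list of 61 pathway genes and the markers were chosen with earlier results of these data known. Named were every detected gene, then of the other pathway genes the 3 of highest TPM in each group and those not detected; further genes, such as Tcf7l1 and Znrf3, were chosen after their values were seen, and so was the lymphocyte list. Promoter windows are from RefSeq (GRCm38.p6).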

Additional observations from a re-analysis of the deposited data

How the results depend on the processing

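No paired analysis was possible because the series holds 1 group of 2 libraries. Between 26 and 40 of the 51 genes were detected under 7 other rules (34 with either library alone), and 0 were over 2-fold apart under all 8 alternatives of scaling, prior count, filter, count minimum and quantification. TPM depends on what else the total holds. In the other quantification the classes summed to 126.8 TPM for coreceptors and other receptors, 117.1 for Frizzled, 107.6 for secreted Frizzled-related genes, 63.9 for ligands, 30.1 for Lgr, 24.9 for Dickkopf, 22.4 for the nuclear or feedback genes and 5.09 for R-spondins. Rescaled over nuclear protein-coding genes, the sums in the same order were 197.8, 186.1, 151.6, 92.9, 39.6, 39.4, 30.3 and 8.27 TPM. With coding transcripts only, an alternative chosen after seeing the data, 31 genes were detected, and the sums that moved by more than 1 SD were 69.6 for coreceptors and other receptors, 50.7 for secreted Frizzled-related genes, 28.4 for ligands, 13.0 for Lgr, 11.0 for the nuclear or feedback genes and 3.08 for R-spondins.

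By expected counts the shares within a class were 48.0% for Lrp6, 32.7% for Fzd4, 96.0% for Lgr4, 29.9% for Wnt4 and 40.7% for Frzb. In the other quantification they were 32.9% for Lrp6, 92.3% for Lgr4, 21.4% for Wnt4 and 40.6% for Frzb. With coding transcripts only they were 32.0% for Lrp6, 96.8% for Lgr4, 29.7% for Wnt4, 76.5% for Rspo3 and 28.8% for Frzb.

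Of the 30 genes with at least 100 counts, 11 had ratios above 0 with spike-in scaling, beside 22.9% of all genes. Intervals above 0 numbered 7 by library size (15.2% of all genes) and 2 by spike-ins (5.91%), and intervals below 0 numbered 10 by spike-ins (42.6%). With a minimum of 10 or of 50 counts, intervals below 0 numbered 6 each, which adds genes of low count. Among the ratios that turned below 0 with spike-ins, those of Frzb (-0.019), Fzd4 (-0.04) and Fzd8 (-0.002) had TMM intervals above 0. The ratios of Fzd3 (-0.012), Rspo3 (-0.097), Ryk (-0.048), Wnt11 (-0.012) and Wnt5a (-0.127) also turned, from TMM intervals that included 0. The cause of the difference between scalings was not tested. Precision at low counts was limited by depth, and 2 libraries limit every SD. The detection limit of 1 TPM is a chosen threshold. A gene can lie below it with over 100 counts, as Celsr1 did (185 and 175 expected counts, 0.65 and 0.67 TPM).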
